A study of Homo sapiens with 6 samples.

Results

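The mitochondrial genome encodes 37 genes, and all of them were found among the 58395 Ensembl genes of the deposited tables by their symbols, which begin with MT-. They comprise 13 mRNAs, 2 rRNAs and 22 tRNAs on the mitochondrial chromosome of GRCh38 (chrM, 16569 bases). The RNA came from HCT116 cells, an established line of human colorectal cancer cells. The 3 shControl libraries carry a lentiviral non-target hairpin, and the 3 shSTBD1 libraries carry a lentiviral hairpin against STBD1. STBD1 encodes a glycogen-binding protein that serves as a cargo receptor for glycogen. The methods describe lentiviral infection followed by selection in puromycin or G418, without saying which was used for these cells. They give 1 hairpin for each group, and the libraries are stated to be 3 biological replicates of each. Whether these were separate cultures is not stated, so the p-values measure the spread between the libraries, which may be partly technical. Each library held between 17689097 and 21668274 expected counts, the number of fragments that RSEM assigned to genes.

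Mitochondrial DNA is transcribed from both strands as long precursor RNAs that cover many genes. Most mRNAs and rRNAs in these precursors are separated by tRNAs, and cutting at both ends of each tRNA releases the mature RNAs between them. The mRNAs encode core subunits of respiratory complexes I, III and IV and of the ATP synthase, complex V, and the rRNAs form the core of the mitochondrial ribosome. All other proteins of these complexes come from nuclear genes.

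Of the 37 genes, 28 lie on the plus strand of the reference and 9 on the minus strand, namely 8 tRNAs and MT-ND6. Stretches of the reference are shown for 3 tRNAs that lie between neighbours whose counts are compared here, and for 2 places where mRNAs overlap. Capitals mark the tRNA or the overlap, and lower case marks the bases that flank it. All are read from GRCh38 on the plus strand, 5′ to 3′.
MT-TV, chrM:1590-1682, between MT-RNR1 and MT-RNR2: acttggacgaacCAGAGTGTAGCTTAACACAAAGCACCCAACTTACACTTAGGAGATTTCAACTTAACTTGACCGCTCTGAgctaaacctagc
MT-TL1, chrM:3218-3318, between MT-RNR2 and MT-ND1: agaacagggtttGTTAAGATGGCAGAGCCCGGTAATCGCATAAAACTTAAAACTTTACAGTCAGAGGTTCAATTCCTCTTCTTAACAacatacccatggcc
MT-TD, chrM:7506-7597, between MT-CO1 and MT-CO2: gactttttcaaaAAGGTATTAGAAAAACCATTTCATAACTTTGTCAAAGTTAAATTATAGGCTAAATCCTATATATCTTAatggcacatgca
MT-ATP8 and MT-ATP6, chrM:8515-8584: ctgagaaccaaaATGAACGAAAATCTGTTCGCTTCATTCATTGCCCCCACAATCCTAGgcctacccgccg
MT-ND4L and MT-ND4, chrM:10748-10778: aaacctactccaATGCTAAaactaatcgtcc
MT-TV fills the 69 bases between the rRNAs, and MT-TL1 most of the 77 bases between MT-RNR2 and MT-ND1. The gap between MT-CO1 and MT-CO2 is 140 bases. MT-ATP8 and MT-ATP6 share 46 bases and MT-ND4L and MT-ND4 share 7, and each of these pairs is known to remain on a shared mRNA. Of the 13 coding regions, 6 end within a codon, and polyadenylation is known to complete such stop codons.

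The 22 tRNAs were listed at 0 in all 6 libraries. They are 59 to 75 bases long, and RSEM gave each an effective length of 0. From the effective length of MT-CO1, the fragments averaged between 274 and 283 bases in the 6 libraries, more than the length of any tRNA here. The listed 0 therefore carries no information on the level of mature tRNAs. The other 15 genes had counts in every library and all entered the test, so the filter on low counts removed none of them.

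In shControl, 6.82% ± 0.787 (SD, n = 3) of all expected counts came from mitochondrial genes, against 5.96% ± 0.184 (SD, n = 3) in shSTBD1. Shares in shControl 1, 2 and 3 were 7.72%, 6.32% and 6.41%, and those in shSTBD1 1, 2 and 3 were 6.15%, 5.78% and 5.97%. The groups did not overlap, and shControl 1 lay farther from the other shControl libraries than these lay from shSTBD1. The difference between the group means was -0.853 percentage points, and -0.400 without shControl 1. No test is given for this sum over genes. In RNA from many cells, fewer cells of a kind and less RNA per cell cannot be told apart. Nor can a share of the library total tell less mitochondrial RNA from more RNA of other genes.

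The mRNAs made up most of this share, with 5.97% ± 0.683 of all counts in shControl and 5.30% ± 0.164 in shSTBD1 (SD, n = 3 each). The rRNAs took 0.962%, 0.776% and 0.788% in shControl 1, 2 and 3. In shSTBD1 1, 2 and 3 they took 0.688%, 0.648% and 0.666%, below every shControl library. Mean rRNA share in shSTBD1 was 0.793 times that in shControl, and the mean mRNA share 0.886 times.

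**Figure D1:**
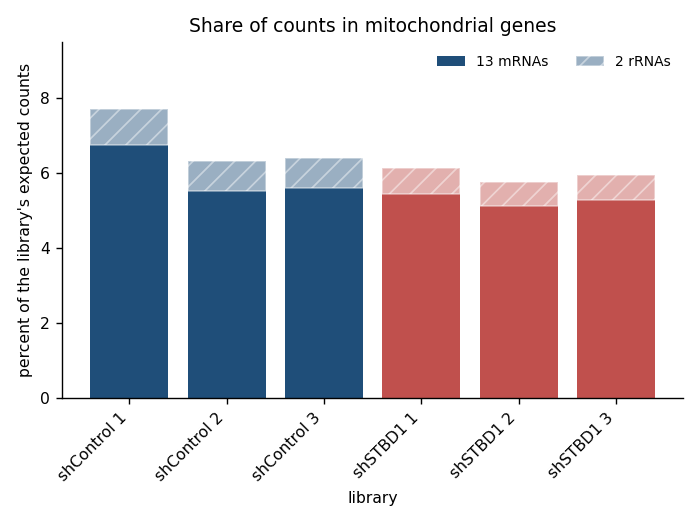
Percent of each library's expected counts (vertical axis) in the 13 mRNAs (solid) and the 2 rRNAs (hatched) of the mitochondrial genome, with 1 bar per library (horizontal axis). shControl 1 stands at 7.72% and the other 5 libraries at 5.78% to 6.41%.

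shControl 1 had the highest level of all 15 genes. Levels are given as CPM, counts relative to the library total after scaling by edgeR's TMM factors. Among all 15566 tested genes 22.7% were highest in shControl 1. The median ratio of shControl 1 to the mean of shControl 2 and 3 was 1.26 over the 15 genes and 1.00 over all tested genes. Ratios ran from 1.17 for MT-CO3 and MT-ND3 to 1.53 for MT-ND6 and 1.70 for MT-ATP8. shControl 2 and 3 were close to each other, with ratios from 0.973 for MT-ND3 and MT-ND4L to 1.07 for MT-CO1. Each of the 15 genes is therefore compared with and without shControl 1.

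Other measures also differed in shControl 1. Its fragments averaged 274 bases, against 277 to 283 in the other libraries, and the effective length of MT-ATP8 was longest there, at 2.08 bases. In TPM, which divide by effective length, MT-ATP8 had 25780 there, against 17255 and 18809 in shControl 2 and 3. The nuclear subunits of complex IV summed to 1269 CPM there, against 1463 and 1446 in shControl 2 and 3 and 1545 to 1595 in shSTBD1. RNAs that lack a poly(A) tail, of which 5 of 12 listed could be tested, summed to 2429 CPM in shControl 1, against 1688 and 1830 in shControl 2 and 3. In shSTBD1 they summed to 1587, 2274 and 2310 CPM, so they did not follow the groups. Nearly all of each sum came from RN7SL1 and RN7SL2, at 910 and 1515 CPM in shControl 1. RN7SK, RMRP and H2AC11 reached at most 1.47 CPM, so the sums do not describe such RNAs as a class. The part of these differences in the mitochondrial values was not tested. Over the nuclear tested genes, the mean distance of shControl 1 to the other libraries was 43.4 log2 CPM units, against 41.5 to 42.95 for the others.

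The comparison of shSTBD1 with shControl asked which mitochondrial RNAs differ when STBD1 is depleted. Of the 15 genes, 8 fell in shSTBD1 and 0 rose at an adjusted p under 0.05 in the quasi-likelihood test of edgeR, adjusted after Benjamini and Hochberg across the 15566 genes tested. At an unadjusted p under 0.05, 9 were lower and 0 higher. Among all tested genes, 7.54% were called lower and 8.22% higher at an adjusted p under 0.05. DESeq2 called 2 of the 15 lower and limma on log2(TPM + 1) called 0, with 4 and 8 lower at an unadjusted p under 0.05. Over all genes, DESeq2 called 698 of 11809 lower and limma 114 of 15566. No share of all genes is given at an unadjusted p, so those counts have no background beside them. The median log2 fold change was -0.19 for the mRNAs and 0.0023 for all tested genes. The sign was negative for 14 of the 15, the exception being MT-ND2. In 9 of the 15 the libraries of the groups did not overlap, against 33.6% of all tested genes.

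shControl 1 was singled out because it was the highest library of all 15 genes. Leaving it out therefore had to raise their log2 fold changes, and the p-values of that fit are not independent support. Without shControl 1, the same 8 genes were called lower, and 3 others, MT-ND1, MT-ND2 and MT-CO2, were called higher. In that fit 7.84% of all genes were called lower and 8.4% higher. The median over the mRNAs moved to -0.058, and 4 genes changed sign. Leaving out shSTBD1 1, 2 or 3 reduced the calls to 4, 2 and 4, all lower, and MT-RNR2 and MT-CO1 were among them each time. Calls over all tested genes also fell in these fits, from 2453 to 1570, 1409 and 1497. Without shControl 2 or without shControl 3, 9 were called, the same 8 and MT-ND6, with 2212 and 1829 calls over all genes.

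**Figure D2:**
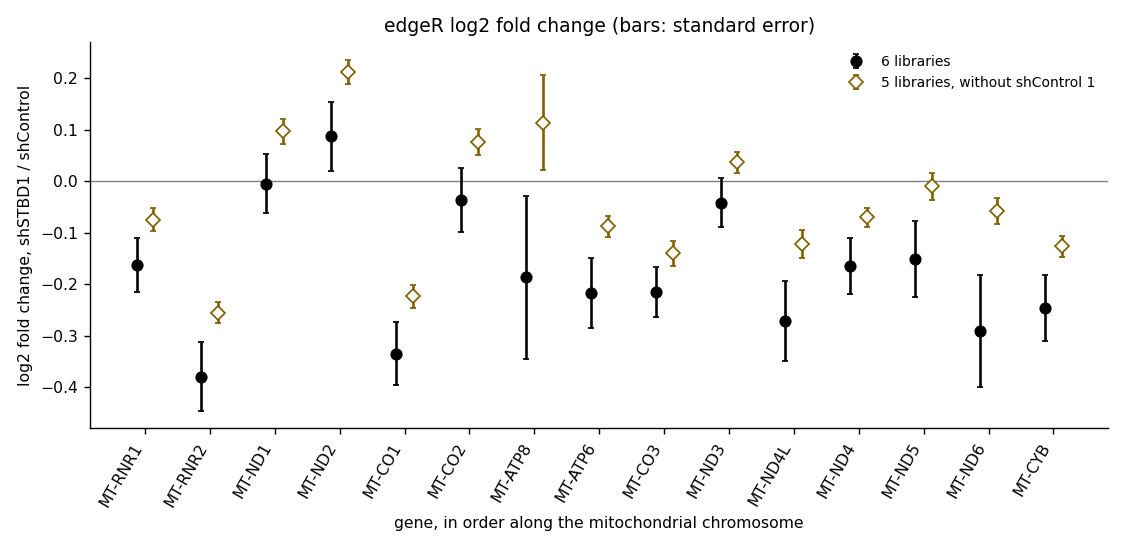
edgeR log2 fold change of shSTBD1 over shControl (vertical axis) for the 15 genes in chromosome order (horizontal axis), from all 6 libraries (filled circles) and without shControl 1 (open diamonds). Bars are standard errors. Leaving out shControl 1, the highest library of every gene, moves every gene upward, MT-RNR2 from -0.38 to -0.25 and MT-ND2 from 0.087 to 0.21.

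The rRNAs were both called lower. MT-RNR2 (ENSG00000210082, chrM:1671-3229), the rRNA of the large ribosomal subunit, fell most of the 15 genes. Its levels were 8549, 6632 and 6784 CPM in shControl 1, 2 and 3, and 5835, 5457 and 5596 CPM in shSTBD1 1, 2 and 3. The groups did not overlap, and the highest shSTBD1 library lay below the lowest shControl library by more than the shSTBD1 libraries spanned. The log2 fold change was -0.38 (SE 0.066, adjusted p = 9.5e-04 by edgeR), and -0.25 (SE 0.021, adjusted p = 8.1e-09 by edgeR) without shControl 1.

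MT-RNR1 (ENSG00000211459, chrM:648-1601), the rRNA of the small subunit, changed less. It measured 1291, 1074 and 1088 CPM in shControl 1 to 3, and 1052, 1002 and 1030 CPM in shSTBD1 1 to 3. The groups did not overlap, but the gap between shControl 2 and shSTBD1 1 was smaller than the spread within either group. Its log2 fold change was -0.16 (SE 0.052, adjusted p = 0.044 by edgeR), and -0.074 (adjusted p = 0.023 by edgeR) without shControl 1.

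Complex IV, cytochrome c oxidase, passes electrons to oxygen, and its catalytic core is encoded by MT-CO1, MT-CO2 and MT-CO3. MT-CO1 (ENSG00000198804, chrM:5904-7445), the subunit that binds oxygen, had the most counts of all 15 genes. It measured 18992, 14736 and 15801 CPM in shControl 1 to 3 and 13539, 12836 and 12904 CPM in shSTBD1 1 to 3. Each shSTBD1 library lay below each shControl library. It had a log2 fold change of -0.33 (SE 0.062, adjusted p = 0.0015 by edgeR), and -0.22 (adjusted p = 2.1e-07) without shControl 1.

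MT-CO3 (ENSG00000198938, chrM:9207-9990) measured 8097, 6973 and 6920 CPM in shControl 1 to 3, and 6568, 5999 and 6379 CPM in shSTBD1 1 to 3. It was called lower, with a log2 fold change of -0.21 (SE 0.049, adjusted p = 0.0072 by edgeR), and -0.14 without shControl 1 (adjusted p = 2.4e-04). MT-CO2 (ENSG00000198712, chrM:7586-8269), which carries the first copper site to take up electrons, was not called in the full comparison. It measured 8847, 7026 and 7175 CPM in shControl 1 to 3 and 7875, 7158 and 7446 CPM in shSTBD1 1 to 3, so the groups overlapped. Its log2 fold change was -0.036 (SE 0.063, adjusted p = 0.75 by edgeR), and 0.076 (adjusted p = 0.041) without shControl 1. MT-CO1 and MT-CO2 are neighbours on the same strand, separated by MT-TD and a tRNA of the other strand.

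Complex I, NADH dehydrogenase, takes electrons from NADH, and 7 of its membrane subunits are mitochondrial. Of their mRNAs, 2 were called lower, MT-ND4 and MT-ND4L, and 0 higher. MT-ND2 (ENSG00000198763, chrM:4470-5511) went the other way. It measured 3864, 3051 and 3010 CPM in shControl 1 to 3, and 3670, 3384 and 3490 CPM in shSTBD1 1 to 3. shControl 1 was the highest of the 6 libraries, and shControl 2 and 3 were the lowest. The log2 fold change was 0.087 (SE 0.067, adjusted p = 0.42 by edgeR) with all libraries and 0.21 (SE 0.024, adjusted p = 8.5e-07) without shControl 1.

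MT-ND1 (ENSG00000198888, chrM:3307-4262), which forms part of the quinone site, showed the same order of libraries. It measured 1982, 1625 and 1618 CPM in shControl 1 to 3, and 1792, 1664 and 1754 CPM in shSTBD1 1 to 3. The log2 fold change was -0.0043 (SE 0.058, adjusted p = 0.97 by edgeR), and 0.097 (adjusted p = 0.0068) without shControl 1. MT-ND3 (ENSG00000198840, chrM:10059-10404) lay between 1008 and 1196 CPM in shControl and between 1042 and 1058 CPM in shSTBD1. It was called in neither fit, with log2 fold changes of -0.041 and 0.037.

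MT-ND4 (ENSG00000198886, chrM:10760-12137), a proton-pumping subunit, measured 8989, 7442 and 7435 CPM in shControl 1 to 3. In shSTBD1 1 to 3 it measured 7242, 6917 and 7130 CPM, below every shControl library. It fell with a log2 fold change of -0.16 (SE 0.054, adjusted p = 0.047 by edgeR), and -0.070 without shControl 1 (adjusted p = 0.0095). MT-ND4L (ENSG00000212907, chrM:10470-10766), carried on the same mRNA, measured 958, 728 and 708 CPM in shControl 1 to 3 and 650, 639 and 694 CPM in shSTBD1 1 to 3. Its log2 fold change was -0.27 (SE 0.078, adjusted p = 0.025 by edgeR), and -0.12 without shControl 1 (adjusted p = 0.0033). With offsets for effective length, MT-ND4L stood at -0.19 (adjusted p = 0.18 by edgeR) and MT-ND4 at -0.16 (adjusted p = 0.22), so neither was called. The effective length of MT-ND4L ran from 30.0 bases in shSTBD1 1 to 35.9 bases in shControl 1. Its part in the difference between the 2 genes was not tested.

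MT-ND5 (ENSG00000198786, chrM:12337-14148), another proton-pumping subunit, lay between 4108 and 5434 CPM in shControl and between 3874 and 4281 CPM in shSTBD1, and the groups overlapped. Its log2 fold change was -0.15 (SE 0.075, adjusted p = 0.19 by edgeR), and -0.0099 (adjusted p = 0.86) without shControl 1. MT-ND6 (ENSG00000198695, chrM:14149-14673) is the only mRNA read from the minus strand. It measured 1277, 832 and 835 CPM in shControl 1 to 3 and 826, 771 and 810 CPM in shSTBD1 1 to 3. All shSTBD1 libraries lay below shControl, but shControl 2 and 3 were close to them. The log2 fold change of -0.29 (SE 0.11) did not pass (adjusted p = 0.081 by edgeR), nor did that of -0.058 without shControl 1 (adjusted p = 0.12). Whether strand was used in the counting is not stated in the sources used here, and without it reads from MT-ND6 and from antisense RNA of the other strand cannot be told apart.

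MT-CYB (ENSG00000198727, chrM:14747-15887), the only mitochondrial subunit of complex III, carries the heme groups of cytochrome b. It measured 3793, 3007 and 2994 CPM in shControl 1 to 3, and 2826, 2664 and 2768 CPM in shSTBD1 1 to 3. The groups did not overlap, with a log2 fold change of -0.25 (SE 0.064, adjusted p = 0.015 by edgeR), and -0.13 without shControl 1 (adjusted p = 1.5e-04).

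For complex V, MT-ATP6 (ENSG00000198899, chrM:8527-9207) forms part of the proton channel. It measured 5700, 4416 and 4444 CPM in shControl 1 to 3, and 4308, 4131 and 4086 CPM in shSTBD1 1 to 3. It was called lower, with a log2 fold change of -0.22 (SE 0.068, adjusted p = 0.039 by edgeR), and -0.087 without shControl 1 (adjusted p = 0.0036). MT-ATP8 (ENSG00000228253, chrM:8366-8572), a small subunit of the membrane part, had between 462 and 925 expected counts per library, the fewest of the 15. It measured 48.0, 28.1 and 28.6 CPM in shControl 1 to 3 and 25.3, 30.4 and 36.1 CPM in shSTBD1 1 to 3. The groups overlapped, and the log2 fold change was -0.19 (SE 0.16, adjusted p = 0.47 by edgeR), and 0.11 (adjusted p = 0.46) without shControl 1.

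**Figure D3:**
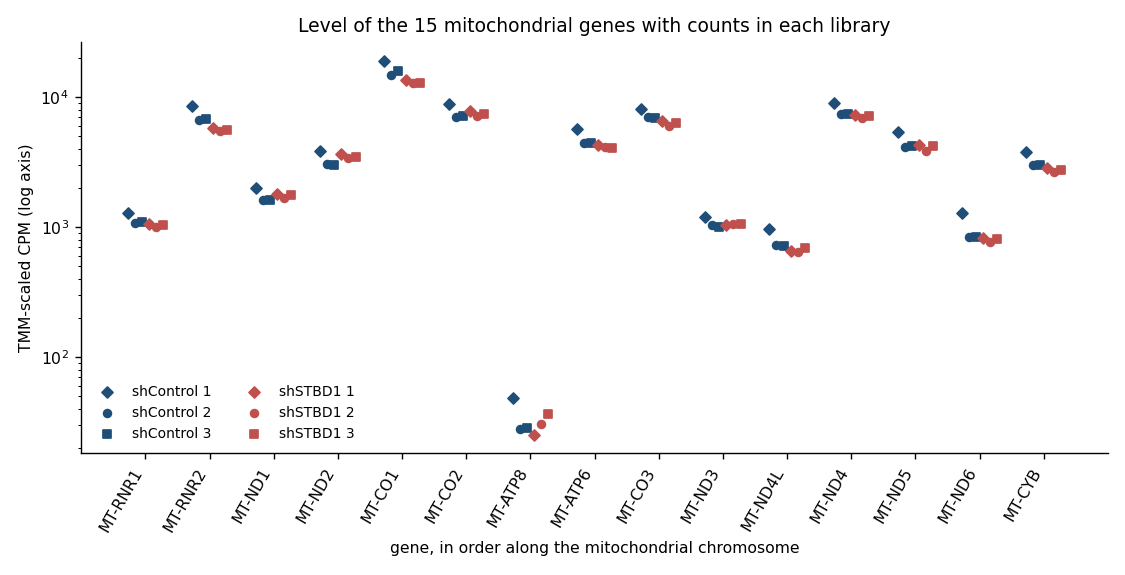
TMM-scaled CPM on a log axis (vertical) of the 15 genes with counts, in chromosome order (horizontal), with 1 point per library, blue for shControl, red for shSTBD1, and diamonds, circles and squares for replicates 1, 2 and 3. The blue diamond of shControl 1 is the highest point of every gene, from 48.0 CPM for MT-ATP8 to 18992 CPM for MT-CO1.

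The scale of the libraries can be set aside by giving each gene as a percent of the mitochondrial counts of its own library. This view was chosen after the values had been seen. Of the 15 genes, 7 had shares that did not overlap between the groups, 4 of them higher and 3 lower in shSTBD1. When every gene was scaled to the mitochondrial counts, 39.4% of all tested genes did not overlap, so the number itself is near the background. For MT-ND1, MT-ND2, MT-CO1, MT-CO2 and MT-RNR2 the distance between the group means was larger than 3 times the SD of either group. The share of all tested genes that pass this cut-off is not given, so these genes have no background beside them. An SD from 3 libraries can also be small by chance. The cut-off therefore only describes these genes and adds no support to a difference between the groups.

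MT-ND2 took 4.89%, 4.86% and 4.70% of the mitochondrial counts in shControl 1 to 3, and 5.96%, 5.88% and 5.88% in shSTBD1 1 to 3. MT-ND1 went from 2.54% ± 0.0432 to 2.92% ± 0.0322 (SD, n = 3 each). Higher shares in shSTBD1 were also measured for MT-CO2, from 11.20% ± 0.00563 to 12.6% ± 0.188, and for MT-ND3, from 1.58% ± 0.0687 to 1.76% ± 0.0651. Each of these encodes a subunit of complex I or IV, but so do most of the 13 mRNAs. MT-CO1, also of complex IV, had a lower share. For MT-ND1, MT-ND2 and MT-CO2 the share in shControl 1 was close to those in shControl 2 and 3, unlike its CPM.

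Lower shares were measured for both of the genes with the largest fall in CPM. MT-RNR2 took 10.8%, 10.6% and 10.6% in shControl 1 to 3, and 9.48%, 9.48% and 9.42% in shSTBD1 1 to 3. MT-CO1 went from 24.1% ± 0.592 to 22.01% ± 0.283, and MT-CYB from 4.76% ± 0.0695 to 4.63% ± 0.0342. MT-ND6 was 1.62% in shControl 1 and 1.304% to 1.36% in the other 5 libraries, so here shControl 1 alone stood apart.

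When edgeR was scaled to the mitochondrial counts, 1 of the 15 genes was called, MT-ND2, with a log2 fold change of 0.29 (adjusted p = 0.016 by edgeR). Over all 15566 tested genes, 1049 were called higher and 38 lower on that scale, so 1 call is near the share over all genes. MT-RNR2 had -0.17 (adjusted p = 0.14) and MT-CO1 -0.13 (adjusted p = 0.20) on that scale. That scaling moved the median of all tested genes from 0.0023 to 0.195. Relative to this median, MT-ND2 stood 0.0985 higher.

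**Figure D4:**
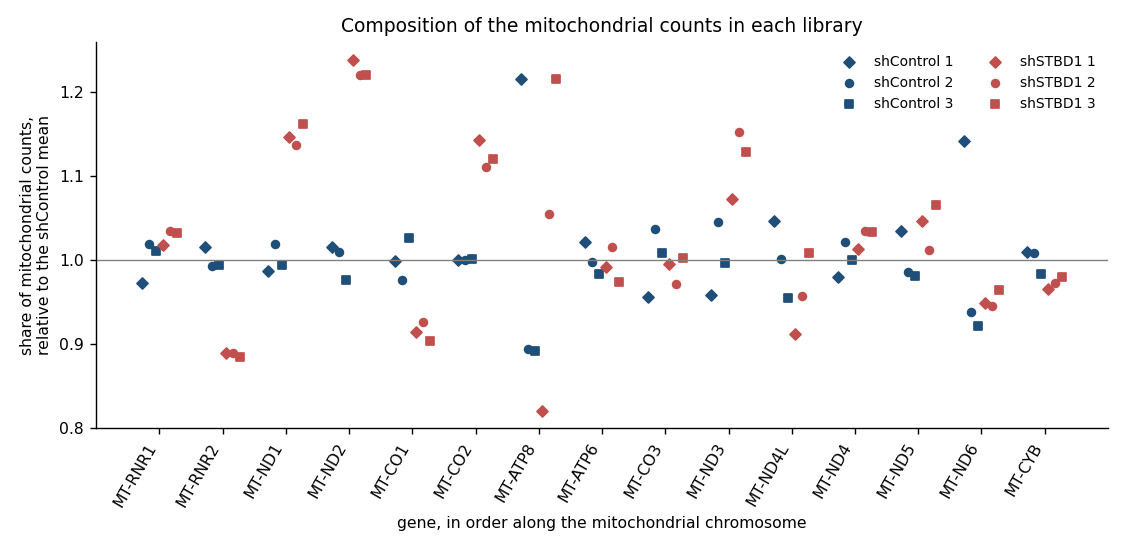
Share of each gene in the mitochondrial counts of a library, divided by its mean in shControl (vertical axis), for the 15 genes in chromosome order (horizontal axis) and the 6 libraries (colours for groups, symbols for replicates). MT-ND1, MT-ND2, MT-CO2 and MT-ND3 lie above 1 in all 3 shSTBD1 libraries, and MT-RNR2, MT-CO1 and MT-CYB below 1.

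Ratios between genes within a library do not depend on its scale. For 10 pairs of neighbours or partners, chosen after the values had been seen, the ratio of CPM was taken in each library. In 7 pairs the groups did not overlap, each with a two-sided exact permutation p of 0.1, the smallest that 3 libraries against 3 allow, and 0.14 after Benjamini-Hochberg adjustment over the 10 pairs. No pair can therefore pass the threshold by this test.

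Across MT-TV, the ratio of MT-RNR2 to MT-RNR1 was 6.62, 6.18 and 6.24 in shControl 1 to 3. In shSTBD1 1 to 3 it was 5.54, 5.45 and 5.43. Across MT-TL1, the ratio of MT-RNR2 to MT-ND1 was 4.31, 4.08 and 4.19 in shControl, and 3.26, 3.28 and 3.19 in shSTBD1. Both ratios fell without overlap, to 0.863 and 0.773 times their shControl means.

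The ratio of MT-ND2 to MT-CO1 moved most among the 10. It was 0.203, 0.207 and 0.191 in shControl 1 to 3, and 0.271, 0.264 and 0.270 in shSTBD1 1 to 3, a mean 1.34 times higher. Across MT-TD, the ratio of MT-CO2 to MT-CO1 was 0.466 ± 0.0113 in shControl and 0.572 ± 0.0127 in shSTBD1 (SD, n = 3 each). The ratio of MT-ND2 to MT-ND1, neighbours that were both higher without shControl 1, moved less, from 1.90 ± 0.0476 to 2.02 ± 0.0304.

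The genes that share an mRNA kept ratios that overlapped between the groups. MT-ATP8 to MT-ATP6 was 0.00636 to 0.00843 in shControl and 0.00587 to 0.00884 in shSTBD1 (two-sided exact permutation test, p = 0.9). MT-ND4L to MT-ND4 was 0.0953 to 0.107 and 0.0898 to 0.0973 (two-sided exact permutation test, p = 0.2). MT-CO3 to MT-ATP6, next to each other on the chromosome, was 1.42 to 1.58 and 1.45 to 1.56 (two-sided exact permutation test, p = 0.9). The remaining pairs did not overlap by small margins. MT-CYB to MT-ND5 was 0.716 ± 0.0169 and 0.669 ± 0.0164, and MT-ND6 to MT-ND5 was 0.213 ± 0.0195 and 0.195 ± 0.00354 (SD, n = 3 each).

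Levels of different genes are compared here per length, as CPM per kilobase of the full gene. In shControl the order began with MT-CO2 at 11232 ± 1478, MT-CO1 at 10707 ± 1436 and MT-CO3 at 9350 ± 848 CPM per kilobase (SD, n = 3 each). The mean differences between these 3 neighbours were within the SD, although MT-CO2 was above MT-CO1 and MT-CO1 above MT-CO3 in 3 of 3 libraries. In shSTBD1, MT-CO2 at 10955 ± 527 and MT-CO1 at 8491 ± 251 CPM per kilobase no longer overlapped. So the mRNAs of complex IV led the order in both groups.

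Next in shControl came MT-ATP6 at 7127 ± 1077, MT-ND4 at 5773 ± 650 and MT-RNR2 at 4696 ± 683 CPM per kilobase, each step larger than the SD. From MT-ND2 at 3175 ± 463 through MT-ND3, MT-CYB and MT-ND4L to MT-ND5 at 2524 ± 412 CPM per kilobase, no neighbours differed beyond their SD. Within libraries, MT-ND3 was above MT-CYB, MT-CYB above MT-ND4L and MT-ND4L above MT-ND5 in 3 of 3. MT-ND2 was above MT-ND3 in 1 of 3. MT-ND6 at 1869 ± 487 and MT-ND1 at 1822 ± 218 CPM per kilobase did not differ beyond their SD either, and MT-ND6 was the higher in 1 of 3. The lowest were MT-RNR1 at 1207 ± 128 and MT-ATP8 at 169 ± 55.0 CPM per kilobase. MT-ATP8 is 207 bases long, shorter than the mean fragment, and division by full length makes no allowance for this. The places of MT-ATP8, MT-ND4L and MT-ND3, the 3 shortest of these genes, therefore depend on the scale and do not give their abundance. MT-RNR2 stood above MT-RNR1 per length in both groups. Whether the libraries were selected for poly(A) tails is not stated in the sources used here.

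The order differs in the deposited TPM, which divide by RSEM's effective length. MT-ND4L was the highest of the 15 in shControl at 27046 ± 2390 TPM (SD, n = 3), and MT-ATP8 came to 20615 ± 4541 TPM. MT-ATP8 is 207 bases long, shorter than the mean fragment, and its effective length averaged 1.90 bases. That of MT-ND4L averaged 32.7 bases and that of MT-ND3 71.9 bases. TPM was 122 times the CPM per kilobase for MT-ATP8, 10.1 times for MT-ND4L and 5.40 times for MT-ND3, against 1.35 to 2.40 times for the other 12 genes. The effective length of MT-ATP8 varied from 1.66 bases in shSTBD1 1 to 2.08 in shControl 1, so its TPM also depends on the fragment length of each library.

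Reads from mitochondrial RNA can also match copies in the nuclear genome. Of 404 nuclear genes named as mitochondrial pseudogenes or MT-RNR2-like genes, 82 had a count in any library and 7 could be tested. Together they took 0.0424% of the counts in shControl 1, 0.0322% and 0.0318% in shControl 2 and 3, and 0.0282% to 0.0302% in shSTBD1. Their summed CPM in shControl 1 was 1.36 times the mean of shControl 2 and 3. The same ratio of sums ran from 1.23 for the mitochondrial mRNAs of complex IV to 1.29 for those of complex V. Among the 5 copies with the most counts the ratio ran from 0.846 to 1.66.

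The most abundant was MTATP6P1, with 4679, 3757 and 3004 expected counts in shControl 1 to 3 and 3005, 3459 and 3500 in shSTBD1 1 to 3. Its log2 fold change was -0.25 (adjusted p = 0.073 by edgeR). MTCO1P12, with 2054 to 3444 expected counts, was the only copy called, at -0.41 (SE 0.078, adjusted p = 0.0018 by edgeR). MTND2P28, MTND5P11 and MTND4P26 followed with mean counts of 62.7, 29.2 and 17.5. RSEM's posterior standard deviation, a measure of ambiguous assignment, reached at most 0.0196% of the count among the 15 mitochondrial genes, for MT-ATP6. Adding the copies to the genes they are named for left the count of calls at 8.

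The nuclear genes that keep and read mitochondrial DNA were taken from fixed lists. For each list, 8.22% higher and 7.54% lower is the share of all tested genes to set beside its edgeR count at an adjusted p under 0.05. No such share is given for the counts at an unadjusted p. Of 15 tested genes of mitochondrial DNA maintenance, 2 rose and 1 fell, and 2 were higher and 5 lower at an unadjusted p under 0.05. DESeq2 called 1 higher and 1 lower and limma on log2(TPM + 1) 0 in either direction, with 1 and 3 at an unadjusted p under 0.05. The count was again 2 and 1 without shControl 1 or shControl 3, 1 and 0 without shSTBD1 3, and 1 and 1 without shControl 2, shSTBD1 1 or shSTBD1 2. These counts are small and near the share over all genes. SSBP1, the single-strand binding protein, rose from 76.2 ± 2.07 to 88.4 ± 2.08 CPM (log2 fold change 0.21, adjusted p = 0.0011 by edgeR). RRM2B, which supplies deoxynucleotides, rose by 0.12 (adjusted p = 0.023). TWNK, the replicative helicase, fell from 109.9 ± 3.48 to 98.1 ± 3.34 CPM (log2 fold change -0.16, adjusted p = 0.0086 by edgeR).

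Of 9 tested genes of mitochondrial transcription, 0 passed in edgeR, DESeq2 or limma on log2(TPM + 1), and 1 was called higher without shControl 2. At an unadjusted p under 0.05 in edgeR, 1 was higher, the elongation factor TEFM (0.28, adjusted p = 0.063). TFAM, which packages the DNA and starts transcription, was the 1 that was lower, at 79.3 ± 0.551 CPM in shControl and 74.4 ± 1.78 CPM in shSTBD1 (log2 fold change -0.092, adjusted p = 0.11 by edgeR). POLRMT, the RNA polymerase, lay at 214 ± 7.52 and 211 ± 1.14 CPM (-0.015, adjusted p = 0.81). MRPL12, a ribosomal protein that also binds POLRMT, had 0.062 (adjusted p = 0.21).

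Among 35 tested genes of mitochondrial RNA processing and decay, 3 rose and 2 fell, close to the share over all genes. DESeq2 called 2 higher and 0 lower and limma on log2(TPM + 1) 0 in either direction, with 2 and 2 at an unadjusted p under 0.05. The count was 3 and 2 without shControl 1, 2 and 1 without shControl 2, shControl 3 or shSTBD1 1, 1 and 1 without shSTBD1 2, and 1 and 0 without shSTBD1 3. HSD17B10, a subunit of the RNase that cuts the 5′ ends of tRNAs, rose by 0.16 (adjusted p = 0.0085 by edgeR), and PDE12, which removes poly(A) tails, rose by 0.16 (adjusted p = 0.020). SLIRP, a partner of LRPPRC in keeping mRNAs stable, rose from 38.9 ± 3.86 to 45.8 ± 2.50 CPM (0.24, adjusted p = 0.020), but was not called without shControl 1 (0.16, adjusted p = 0.054). TRNT1, which adds CCA ends to tRNAs, fell by 0.26 on the log2 scale (adjusted p = 0.011), as did FASTKD3 by 0.23 (adjusted p = 0.049, chosen after its values were seen). LRPPRC itself lay at 375 ± 7.24 CPM in shControl and 356 ± 0.868 CPM in shSTBD1 (-0.076, adjusted p = 0.096). The median over the list was -0.0049, against 0.0023 for all tested genes.

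Of 8 tested regulators of mitochondrial biogenesis, 1 rose, MYC (0.12, adjusted p = 0.022 by edgeR), and 0 fell. At an unadjusted p under 0.05, 2 were higher, MYC and GABPA, and 0 lower. DESeq2 called 1 and limma on log2(TPM + 1) 0, and the count was 1 without shControl 1 but 0 without shControl 3, shSTBD1 1 or shSTBD1 2. GABPA and PPRC1 had 0.10 (adjusted p = 0.12) and -0.061 (adjusted p = 0.24).

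Of 76 tested nuclear subunits of complexes I, III, IV and V, 28 rose, 0 fell and 48 were not called, against 8.22% of all tested genes called higher. The median log2 fold change was 0.095. At an unadjusted p under 0.05, 40 were higher and 1 lower, DESeq2 called 17 higher and 0 lower, and limma on log2(TPM + 1) called 0 in either direction, with 21 higher and 0 lower at an unadjusted p under 0.05. Without shControl 1, 19 rose and 1 fell, without shControl 2 26 rose and without shControl 3 22 rose. Without shSTBD1 1 20 rose, without shSTBD1 2 10 rose and without shSTBD1 3 15 rose. Calls higher over all genes also changed, from 1280 to 1333, 1153 and 992 without shControl 1, 2 and 3. Without shSTBD1 1, 2 and 3 they were 811, 785 and 823. DESeq2 called 761 of 11809 genes higher. By complex, the edgeR calls with all libraries were 9 of 37 in complex I. NDUFB10, NDUFV2 and NDUFB9 had the smallest p there, with log2 fold changes of 0.20, 0.18 and 0.13. Complex III had 4 of 9, with UQCRB, CYC1 and UQCR10 smallest in p, at 0.20, 0.12 and 0.17. Complex IV had 9 of 12, with NDUFA4, COX6B1 and COX4I1 smallest in p, at 0.24, 0.22 and 0.16. Complex V had 6 of 18, with ATP5MK, ATP5PO and ATP5IF1 smallest in p, at 0.28, 0.16 and 0.21.

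STBD1, the targeted gene, measured 16.2, 15.7 and 14.4 CPM in shControl 1 to 3 and 11.6, 9.06 and 9.18 CPM in shSTBD1 1 to 3. Every shSTBD1 library was below every shControl library, and the log2 fold change was -0.64 (SE 0.098, adjusted p = 2.9e-04 by edgeR), and -0.61 without shControl 1 (adjusted p = 2.2e-04). Epithelial markers of the line were present, with KRT8 at 1691 ± 91.4 and EPCAM at 216 ± 3.96 CPM in shControl. Of 5 tested, 4 were called higher in shSTBD1, also with DESeq2 and without shControl 1, and 2 with limma on log2(TPM + 1). The smallest p were those of KRT19, CDH1 and KRT18, at 0.28, 0.29 and 0.20. Markers of other cell types summed to 32.2 to 39.7 CPM in shControl and 37.9 to 41.7 CPM in shSTBD1, 3 of 10 were at 0 in all libraries, and neither of the 2 tested, COL1A1 and VWF, passed in edgeR, DESeq2 or limma, nor at an unadjusted p under 0.05, while 1 was called higher without shControl 2. The RNAs without poly(A) tail had 0 calls of 5 by the same 3 tools, with 0 at an unadjusted p under 0.05, and RN7SL1, RMRP and H2AC11 had the smallest p. Without shControl 1, RN7SL1 was called higher (0.34, adjusted p = 0.016 by edgeR), and 1 of the 5 was called without shSTBD1 1. Of 3 tested nuclear-retained long RNAs, 2 rose, NEAT1 at 0.22 (adjusted p = 0.0045 by edgeR) and MALAT1 at 0.19 (adjusted p = 0.036), and KCNQ1OT1 had 0.043. The count was 1 with DESeq2, 0 with limma on log2(TPM + 1), 2 without shControl 1 or shSTBD1 1, and 1 when any of the other 4 libraries was left out. Of all tested genes, 8.22% were called higher by edgeR with all libraries, the share to set beside the edgeR counts of these short lists. The part of the listed RNAs in the mitochondrial values was not tested.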

How the data were processed

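RNA of 3 shControl and 3 shSTBD1 replicates of HCT116 cells was compared, with groups and replicate numbers taken from the labels. Total RNA was made into libraries with the NEBNext Ultra RNA kit and sequenced in pairs. After removal of poor reads, the authors used STAR 2.7.1a for alignment to Hg38, gene models of Ensembl release 93, and RSEM 1.3.1 to quantify genes. The deposited expected counts are not normalized. The deposited TPM values were computed by the authors from expected count and effective length. RSEM's effective lengths and its posterior standard deviations, also deposited, were used as given.

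Expected counts were rounded, filtered with filterByExpr (15566 genes left), scaled by TMM (factors 0.979 to 1.01) and tested with edgeR 4.0.16 in R 4.3.3 without a replicate term. P-values were adjusted by Benjamini-Hochberg over all tested genes, and calls were made at 0.05. Standard errors were derived from the fold change and the F statistic. The alternatives used DESeq2 1.42.0, limma 3.58.1 on log2 of TPM with 1 or 0.1 added, other scalings and filters, offsets for effective length, a replicate block, and the omission of each library in turn. Gene positions came from GENCODE release 44, in which all 37 genes have the length given in the tables. The script was tested on simulated counts.

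The genes and the lists were chosen with earlier results of these data known. Named were all 37 genes, STBD1, the 3 genes of each list with the smallest p, TFAM, POLRMT, TWNK, LRPPRC and SLIRP, and the 5 nuclear copies with the most counts.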

Additional observations from a re-analysis of the deposited data

How the results depend on the processing

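The 8 calls were unchanged with library size, upper-quartile, RLE or nuclear-gene scaling, with at least 10 counts in every library, with unrounded counts and with nuclear copies added. The calls fell to 2 with DESeq2, both lower, to 1 with effective length offsets, again lower, and to 0 with limma on log2(TPM + 1) or log2(TPM + 0.1). Without a filter 12 were called, 1 of them, MT-ND2, higher, beside 2779 calls over 28225 genes. In that fit MT-RNR2 had an adjusted p of 3.5e-44 by edgeR at a log2 fold change of -0.38, against 9.5e-04 with the filter. The fold change was nearly the same, so the added calls are not stronger support. Leaving out a library gave 2 to 11 calls, 2 to 9 of them lower and 0 to 3 higher. Scaled to the mitochondrial counts, an alternative chosen after seeing the data, 1 was called, higher, and 0 lower. The causes were not tested.

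Over all tested genes, 2453 were called, against 1459 with DESeq2, 510 with effective length offsets, 292 and 290 with limma at 1 and 0.1 added, 1409 to 2577 with a library left out, and 1087 scaled to the mitochondrial counts. The median of the mRNAs turned from -0.19 to 0.038 on that last scale and lay between -0.25 and -0.058 with a library left out. The same scale gave 0.039 for MT-RNR1, 0.20 for MT-ND1, 0.17 for MT-CO2, 0.040 for MT-ATP8, 0.16 for MT-ND3, 0.038 for MT-ND4 and 0.058 for MT-ND5. STBD1 missed the threshold there (-0.44, adjusted p = 0.054 by edgeR) and with limma (-0.54, adjusted p = 0.065, and -0.65, adjusted p = 0.067). The difference in mitochondrial share was -1.90 points in TPM, and -1.10 to -0.400 points in expected counts with a library left out. MT-ND1, near 0, turned to 0.0076 with library size, 0.0025 with effective length offsets and 0.026 without shSTBD1 2. MT-ND3 turned to 0.013 with the offsets. With a library left out, MT-ND1 lay between -0.054 and 0.097, MT-CO2 between -0.096 and 0.076, MT-ATP8 between -0.33 and 0.11, and MT-ND3 between -0.088 and 0.037, each highest without shControl 1.

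Deviations from the group mean correlated at 0.071, 0.068 and -0.0084 across genes between same-numbered libraries 1, 2 and 3. Between libraries of different numbers the correlations ran from -0.074 to 0.010. All are small, and the numbers are not known to pair the libraries. With a replicate block, 9 mitochondrial genes were called, the same 8 and MT-ND6 (adjusted p = 0.027 by edgeR), and MT-ND1 stood at 0.0015. Leaving out shControl 1 lowered the SE of MT-RNR2 from 0.066 to 0.021. Depth limits MT-ATP8 most of the 15 genes, with 462 to 925 expected counts.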
